A study of Mus musculus with 8 samples.

Results

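The choroid plexus is the secretory epithelium of the brain ventricles, which makes cerebrospinal fluid and separates it from blood. Its cells make transthyretin (Ttr) in great abundance and are among the main sites of klotho (Kl) and of folate receptor 1 (Folr1) in the brain, while the neurons and glia of the cortex make little of any of them. 6 genes known from this epithelium, Ttr, Kl, Folr1, Clic6, Kcnj13 and Otx2, were followed by name through the expression table. They were 6 of its 13996 genes. They were chosen by their FPKM in these same 8 mice, where 1 high fat diet mouse differed from the others of its diet, so their levels are given as a description without a test.

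The mice were male C57BL/6 animals that received either a conventional (normal) diet or a high fat diet (60% fat by weight) from 8 weeks of age, for 8 weeks. They were 16 weeks old at collection. Total RNA of the brain cortex, depleted of ribosomal RNA, was sequenced with 1 library per mouse, for 4 mice on each diet, and no genotype or drug differed between the groups. Labels give neither a dissection batch nor a library batch. The numbers 1 to 4 within a diet name mice, and no pairing between diets is stated.

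All values are FPKM (fragments scaled to transcript length and to the mapped reads of the library), so levels can be compared between genes per length. Summed over the table, FPKM ranged from 562431 to 639142 per mouse. Depth is unknown, because FPKM were rounded to 0.1 and no counts were used here. As a check of the labelled tissue, the summed FPKM of 8 genes of cortical projection neurons was 278.0 to 419.4 on the normal diet and 462.7 to 547.4 on the high fat diet. Genes that mark the striatum were also measured, at sums of 223.3 to 420.1 in normal and 74.0 to 83.2 in high fat diet mice, and genes of the cerebellum at 54.3 to 315.1 against 38.1 to 46.5. The cerebellar sums also differed widely within the normal diet, at 54.3, 235.6, 315.1 and 97.7 FPKM in normal mice 1 to 4. Markers of other brain regions thus differed between diets and between mice of a diet. Their part in the values below was not tested.

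The 6 genes shared one grouping of mice, though not the full order. In high fat diet mice 1, 2 and 3 each of them was lower than in any normal mouse, whereas high fat diet mouse 4 lay within or above the normal range. The share of all genes with this grouping was not counted, and as the 6 were chosen with it in view, it describes the choice. High fat diet mouse 4 was above every normal mouse for 4 of them (Ttr, Kl, Folr1 and Kcnj13). Within the normal diet, mouse 4 was the lowest for 6 of 6, where it was so for 22.2% of all genes. No member separated the 4 high fat diet mice from the 4 normal mice (0 of 6), where 31.9% of the 13982 genes in the filtered table did so in one direction or the other. In bulk tissue, fewer epithelial cells in a sample and less RNA per cell cannot be told apart.

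**Figure D1:**
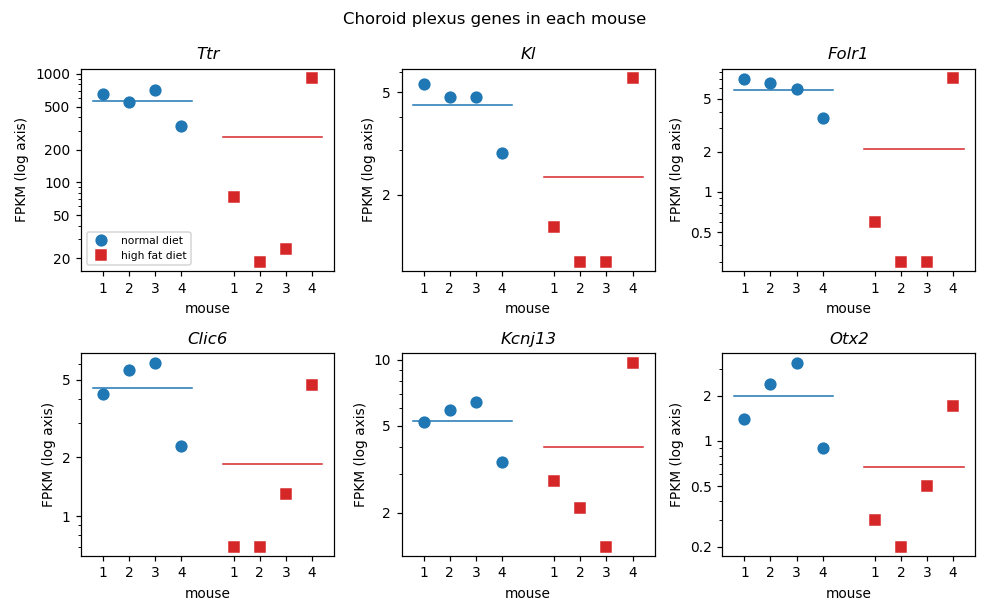
FPKM (log axis) of the 6 choroid plexus genes in each mouse, with normal mice as circles, high fat diet mice as squares and a line at the mean of each diet. High fat diet mice 1 to 3 lie below all normal mice in every panel, and the high fat diet mean falls in the gap between them and mouse 4.

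Ttr (ENSMUSG00000061808.3), which encodes a carrier of thyroid hormone and retinol in cerebrospinal fluid and blood, was the most abundant of the 6. It lies at chr18:20665280-20674321 (GRCm38, plus strand). In normal mice 1 to 4 its level was 647.2, 546.3, 706.8 and 332.6 FPKM. In high fat diet mice 1 to 4 it was 73.4, 18.6, 24.4 and 920.7 FPKM. The highest level of all mice was in high fat diet mouse 4 and the lowest in mouse 2, 49.5-fold apart. Ranked among all genes of its own mouse, Ttr stood between place 55 and place 137 in the normal mice, at place 40 in high fat diet mouse 4, and at places 933, 4276 and 3293 in high fat diet mice 1, 2 and 3. Means were 558 ± 164 FPKM in normal and 259 ± 442 FPKM in high fat diet mice (SD, n = 4 each), so the SD on high fat diet exceeded its mean. The log2 difference of high fat diet minus normal, on log2(FPKM + 0.1), was -2.85 with an SE of 1.03, and without high fat diet mouse 4 it was -4.06 with an SE of 0.45.

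Folr1 (ENSMUSG00000001827.12), at chr7:101858331-101870788 on the minus strand, encodes the receptor by which the choroid plexus takes folate into cerebrospinal fluid. Its level was 7.1, 6.6, 5.9 and 3.6 FPKM in normal mice 1 to 4, and 0.6, 0.3, 0.3 and 7.2 FPKM in high fat diet mice 1 to 4. The level of high fat diet mouse 4 exceeded the next of its diet 12.0-fold, close to the 12.5-fold for Ttr. The lowest normal mouse was 6.00-fold above the highest of the other three high fat diet mice, the widest such gap of the 6 genes. The log2 difference between diets was -2.59 (SE 0.81), and -3.57 (SE 0.28) without high fat diet mouse 4. The 0.3 FPKM in high fat diet mice 2 and 3 are 3 rounding steps, so folds against them are coarse.

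Kl (ENSMUSG00000058488.7), at chr5:150952607-150993817 on the plus strand, encodes klotho, a membrane and shed protein that serves as a co-receptor for FGF23. Its level was 5.4, 4.8, 4.8 and 2.9 FPKM in normal mice and 1.5, 1.1, 1.1 and 5.7 FPKM in high fat diet mice 1 to 4. The order of the mice was nearly that of Folr1, but the span was smaller, with 5.18-fold between the highest and lowest mouse against 24.0-fold for Folr1. High fat diet mice 2 and 3 still held 24.6% of the normal mean of Kl, where they held 5.17% of that of Folr1. The log2 difference between diets was -1.22 (SE 0.46), and -1.76 (SE 0.22) without high fat diet mouse 4.

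Kcnj13 (ENSMUSG00000079436.3), at chr1:87386363-87394729 on the minus strand, encodes the inward rectifier potassium channel Kir7.1 of the apical membrane. It showed the smallest difference, with 5.2, 5.9, 6.4 and 3.4 FPKM in normal and 2.8, 2.1, 1.4 and 9.7 FPKM in high fat diet mice. Only for this gene was high fat diet mouse 3 the lowest mouse by itself, and mouse 4 was at 186% of the normal mean, the highest share among the 6. The log2 difference was -0.74 (SE 0.49), and -1.29 (SE 0.26) without high fat diet mouse 4. Kcnj13 lies wholly inside Gigyf2, which is read from the opposite strand and shares no exonic base with it. Gigyf2 stood at 22.1 to 24.5 FPKM in all 8 mice and did not follow Kcnj13. The sources used here do not say whether counting used the strand.

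Clic6 (ENSMUSG00000022949.9), at chr16:92485736-92541243 on the plus strand, belongs to the chloride intracellular channel family. Its level was 4.2, 5.6, 6.1 and 2.3 FPKM in normal and 0.7, 0.7, 1.3 and 4.7 FPKM in high fat diet mice. High fat diet mouse 4 lay inside the normal range here, at 103% of the normal mean. The log2 difference was -1.60 (SE 0.55), and -2.18 (SE 0.34) without high fat diet mouse 4.

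Otx2 (ENSMUSG00000021848.16), at chr14:48657677-48673819 on the minus strand, encodes a homeodomain transcription factor that the choroid plexus needs in development and keeps in the adult. It was the least abundant, at 1.4, 2.4, 3.3 and 0.9 FPKM in normal and 0.3, 0.2, 0.5 and 1.7 FPKM in high fat diet mice. It was the one member whose high fat diet mean, 0.68 FPKM, was under the filter of 1 FPKM, and it passed through the normal mice. Here high fat diet mouse 4 was at 85.0% of the normal mean and again inside the normal range. The log2 difference was -1.66 (SE 0.56), and -2.18 (SE 0.43) without high fat diet mouse 4. Its exons overlap those of the antisense Otx2os1 by 154 bases and those of Gm49154 by 168 bases, and neither was analysed here.

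The spread within the high fat diet exceeded that within the normal diet for each gene. On log2(FPKM + 0.1) the SD within high fat diet mice was 2.56 for Ttr, 2.00 for Folr1, 1.22 for Clic6, 1.17 for Kcnj13, 1.13 for Otx2 and 1.09 for Kl. Within normal mice it lay between 0.39 for Kl and 0.78 for Otx2. The gap between high fat diet mouse 4 and the next mouse of its diet was the largest of 13982 genes for Ttr and the second largest for Folr1. Kl, Clic6, Kcnj13 and Otx2 stood at places 11, 12, 13 and 16 of that order. As the members were picked with 1 differing mouse in view, these spreads and places describe the choice and are no test.

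Not all 6 genes fell in proportion. The ratio of Ttr to Folr1, in FPKM, ran only from 62.0 to 127.9 over the 8 mice, a 2.06-fold span, although Ttr itself spanned 49.5-fold. The ratio of Ttr to Kl ran from 114 to 147 in normal mice and was 162 in high fat diet mouse 4, and it was 48.9, 16.9 and 22.2 in high fat diet mice 1 to 3. The ratio of Ttr to Kcnj13 reached down to 8.86 in high fat diet mouse 2, from 92.6 to 124 in normal mice. For Clic6 and Otx2 the ratio spanned 10.4-fold and 11.1-fold, and its lowest value was in high fat diet mouse 3. Where Ttr and Folr1 were lowest, the other 4 genes thus kept a larger share of their normal level.

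**Figure D2:**
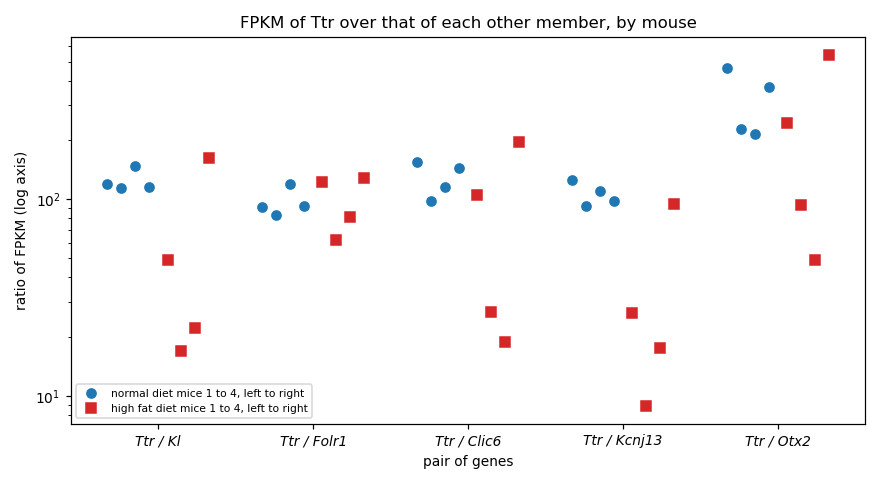
Ratio of the FPKM of Ttr to that of each other member (log axis) in normal mice (circles) and high fat diet mice (squares), mice 1 to 4 from left to right. The ratio to Folr1 stays between 62.0 and 127.9 in all mice, and the other 4 ratios fall in high fat diet mice 2 and 3.

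The members were also compared pair by pair on deviations from the diet means over the 8 mice, which share their libraries. Pearson's r over the 15 pairs lay between 0.79 and 0.99, with a median of 0.89. Without high fat diet mouse 4, r lay between 0.22 and 0.96, with a median of 0.52. A pair that remained close without this mouse was Kl and Folr1, at 0.96 (0.99 with it). Another was Clic6 and Otx2, at 0.94 (0.97 with it), whose levels were both highest in normal mouse 3 and next highest in normal mouse 2. Those 2 mice also had the highest sums of cerebellum and ependyma genes.

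Otx2 is the transcription factor among the 6, and factors of its class bind TAATCC and, with less sequence need, the core TAATC. RefSeq promoter windows (GRCm38.p6) of 300 bases, from 250 before the start base to 50 from it onwards, were matched for 3 of the 6 members, Kl, Kcnj13 and Otx2. TAATC or its reverse complement GATTA occurs in 22.0% of 32851 such windows, and TAATCC or GGATTA, which contains the former, in 7.06%. The window of Kl (chr5:150952357-150952656, plus strand), that of Kcnj13 (chr1:87394680-87394979, minus strand) and that of the 1 of 4 Otx2 starts with a match (chr14:48665060-48665359, minus strand) are shown because each holds 1 match to the core, in capitals. The match of Kl begins at position 2 after the start base, that of Kcnj13 at -226 and that of Otx2 at -210, the last within GGATTA. A match is a description of these letters and not a bound site.
Kl: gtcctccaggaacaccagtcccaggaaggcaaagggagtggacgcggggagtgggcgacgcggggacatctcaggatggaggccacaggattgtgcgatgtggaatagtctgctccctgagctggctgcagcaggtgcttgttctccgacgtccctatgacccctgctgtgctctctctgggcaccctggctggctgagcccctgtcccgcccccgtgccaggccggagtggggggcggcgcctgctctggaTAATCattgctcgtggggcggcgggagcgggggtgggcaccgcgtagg
Kcnj13: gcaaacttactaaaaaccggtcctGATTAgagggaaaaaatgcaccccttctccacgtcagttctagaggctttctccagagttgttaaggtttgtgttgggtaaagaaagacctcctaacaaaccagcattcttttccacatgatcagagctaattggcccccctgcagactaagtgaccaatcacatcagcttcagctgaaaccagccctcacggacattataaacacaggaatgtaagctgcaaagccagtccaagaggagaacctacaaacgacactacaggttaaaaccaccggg
Otx2: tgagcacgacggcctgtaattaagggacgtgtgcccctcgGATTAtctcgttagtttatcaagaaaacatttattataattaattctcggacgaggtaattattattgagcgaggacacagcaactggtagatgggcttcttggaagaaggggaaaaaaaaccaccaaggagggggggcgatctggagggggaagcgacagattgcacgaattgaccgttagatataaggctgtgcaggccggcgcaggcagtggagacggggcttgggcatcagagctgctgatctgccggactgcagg

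A wider list of 46 other genes known from the choroid plexus epithelium (companions) was examined with the same table, of which 31 were measured and the other 15 were not analysed here. Being measured in the same mice, they are not independent evidence of the direction of the members. With limma and Benjamini-Hochberg adjustment, 14 of 31 companions were lower on high fat diet and 1 was higher at an adjusted p below 0.05. Over all 13982 genes, 33.1% were called, 15.3% lower and 17.7% higher. The median log2 difference of the companions was -0.62, beside 0.00 over all genes. In high fat diet mice 1 to 3 the median companion kept 60.1%, 58.8% and 50.4% of its normal mean. The median member kept 15.2%, 12.7% and 24.8%. Whether other cells of the cortex add to the level of a companion, called or not, was not tested. Of the 31, 26 passed the filter of 1 FPKM in both diets, and 12 of these were lower and 1 was higher. The other 5, Lbp, Aqp1, Sostdc1, Pla2g5 and Mdfic, passed through the normal mice alone.

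Among secreted products, 6 of 8 companions were lower, beside 15.3% over all genes. Of the 5 that passed the filter in both diets, 5 were lower. Enpp2, which encodes autotaxin, the enzyme that makes lysophosphatidic acid, was the most abundant companion, at 233.5, 211.0, 237.1 and 146.9 FPKM in normal and 76.5, 75.9, 88.6 and 204.9 FPKM in high fat diet mice. Its levels had the shape of the members, with high fat diet mouse 4 inside the normal range and the other three below it. The log2 difference was -1.01 (SE 0.30, adjusted p = 0.0298 by limma). 1500015O10Rik, which encodes the secreted peptide augurin and was matched by its gene ID, was at 11.9, 10.6, 12.5 and 6.2 FPKM in normal and 1.6, 1.4, 1.0 and 12.1 FPKM in high fat diet mice (log2 difference -2.05, SE 0.65, adjusted p = 0.0368 by limma). Igf2, a growth factor of choroid plexus and meninges, differed in its pattern. It was at 13.0, 13.7, 13.1 and 9.4 FPKM in normal and 7.6, 8.0, 6.2 and 8.0 FPKM in high fat diet mice, without overlap and with mouse 4 no higher than mouse 2 (log2 difference -0.71, SE 0.13, adjusted p = 0.00367 by limma). Igfbp2 (-0.55), Lbp (-1.47) and Bmp6 (-0.39) were the other secreted products called lower.

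Beside 15.3% called lower over all genes, 6 of 12 companions among receptors and transporters were lower. They were Trpm3 (log2 difference -0.62), the anion exchanger Slc4a2 (-0.68), the carbonic anhydrases Car12 (-1.05) and Car14 (-0.86), the copper transporter Slc31a1 (-0.30) and the monoamine transporter Slc29a4 (-0.91). Slc29a4, at 2.4, 2.7, 2.9 and 2.2 FPKM in normal and 1.4, 1.5, 0.9 and 1.5 FPKM in high fat diet mice, and Car14 did not show mouse 4 apart. Kcne2, a potassium channel subunit of the apical membrane, was not called (adjusted p = 0.0734 by limma), with 2.2, 2.7, 3.0 and 1.2 FPKM in normal and 0.4, 0.2, 0.3 and 3.3 FPKM in high fat diet mice. The water channel Aqp1 was at 1.3 to 2.0 FPKM in normal mice and at 0.4, 0.3, 0.2 and 2.3 FPKM in high fat diet mice (adjusted p = 0.0576 by limma). Htr2c, a serotonin receptor that cortical neurons also express, had a log2 difference of -0.01 with an adjusted p of 0.981 by limma.

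Among epithelial and regulatory genes, 2 of 11 were lower, the retinol dehydrogenase gene Rdh5 (log2 difference -1.11) and Mdfic (-0.51). This share was near the 15.3% called lower over all genes. Mdfic passed the filter through the normal mice alone, and of the 10 that passed in both diets 1 was lower and 1 higher. The tight junction gene Cldn1 was higher (0.76, adjusted p = 0.0359 by limma), at 1.0 to 1.3 FPKM in normal and 2.1, 1.8, 1.2 and 3.0 FPKM in high fat diet mice. Vat1l (-0.54, adjusted p = 0.0660) and Cab39l (-0.14, adjusted p = 0.376) were not called by limma.

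**Figure D3:**
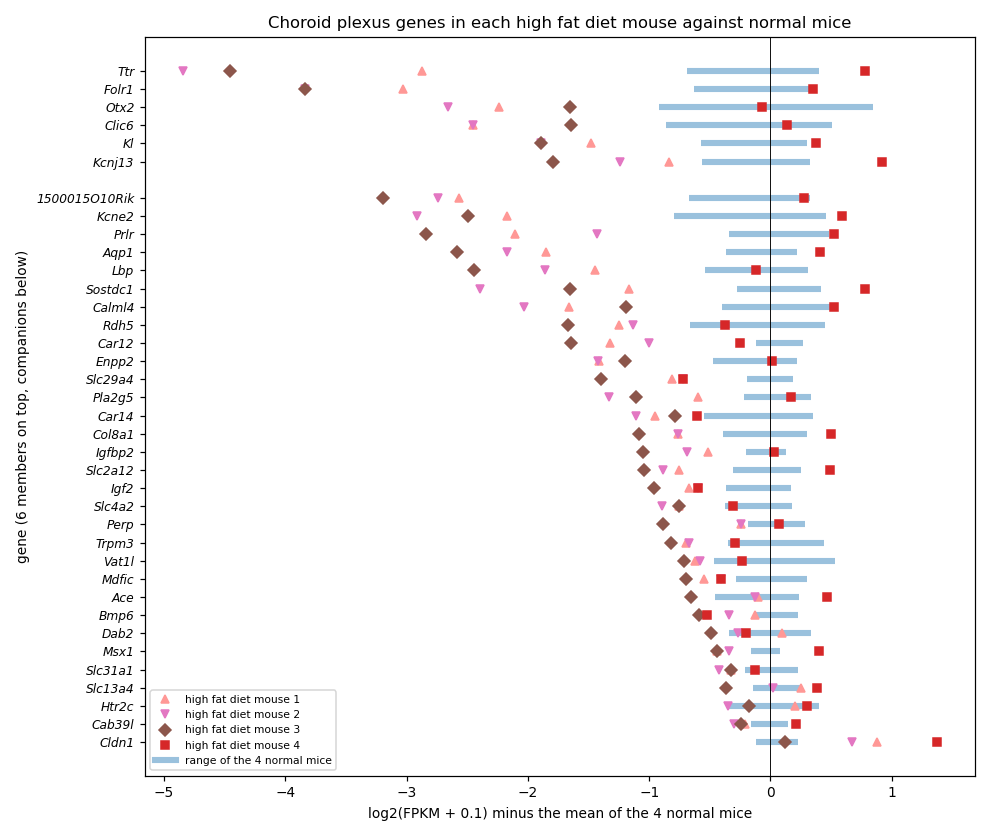
log2(FPKM + 0.1) of each high fat diet mouse minus the mean of the 4 normal mice, for the 6 members (top) and the 31 companions (below, ordered by their lowest high fat diet mouse), with the range of the normal mice as a bar. Mouse 4 lies within or above that bar for the 6 members and is the highest of its diet for 26 of 31 companions.

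High fat diet mouse 4 was the highest of its diet for 26 of 31 companions, where it was so for 22.5% of all genes, and normal mouse 4 was the lowest of its diet for 26 of 31, where it was so for 22.2%. Summed over the companions, FPKM were 433.6, 431.0, 478.8 and 309.0 in normal and 209.7, 199.5, 198.1 and 405.4 in high fat diet mice. High fat diet mouse 4 was known for its high levels of these genes. Leaving it out favours calls of lower, so the fit without it is a description and no test. In that fit 22 of 31 companions were called lower by limma and 0 higher. Of the 26 that passed the filter in both diets, 18 were lower and 0 higher. That filter took the high fat diet mean with mouse 4. Among the 18, Kcne2, Prlr, Col8a1 and Slc2a12 were at 0.2 to 1.0 FPKM in high fat diet mice 1 to 3 and passed through mouse 4. Over all genes 28.3% were called in that fit, 13.0% lower and 15.3% higher. Kcne2 (log2 difference -2.53), Aqp1 (-2.20), Prlr (-2.12) and Calml4 (-1.63) were among those called in that limma fit but not with all mice. Bmp6, Mdfic and Cldn1 were called with all mice and not in that fit. Leaving out normal mice 1, 2 or 3 or high fat diet mice 1, 2 or 3 instead left 7, 5, 6, 6, 5 and 6 companions called, and leaving out normal mouse 4 left 15.

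The genes that set high fat diet mouse 4 apart were then counted over the whole table. In 32 genes (0.229% of 13982) it exceeded each other mouse of its diet more than 2-fold. These held all 6 members, which had been picked with this in view, and 10 of the 31 companions (1500015O10Rik, Kcne2, Aqp1, Sostdc1, Prlr, Calml4, Lbp, Col8a1, Slc2a12 and Enpp2). Of these 10, Aqp1, Sostdc1 and Lbp passed the filter through the normal mice alone. Kcne2, Prlr, Col8a1 and Slc2a12 were at 0.2 to 1.0 FPKM in high fat diet mice 1 to 3. Their high fat diet means reached 1 FPKM only with mouse 4. At such levels folds are coarse, as FPKM were rounded to 0.1. With all mice, limma called 3 of the 10 companions (Enpp2, 1500015O10Rik and Lbp). By the same count the other 7 mice had between 3 and 9 such genes each, with 0 members and 0 companions among them.

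**Figure D4:**
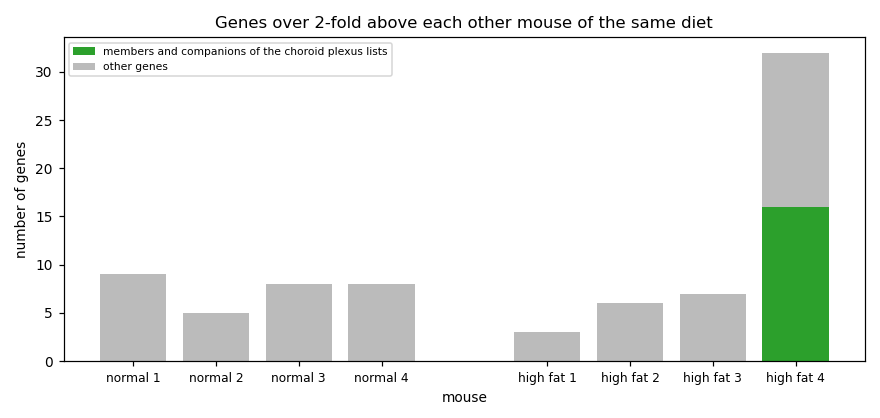
Number of genes more than 2-fold above each other mouse of the same diet, for each mouse, split into choroid plexus members and companions (green) and other genes (grey). High fat diet mouse 4 has 32, of which 16 are choroid plexus genes, and no other mouse has more than 9.

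Markers of neighbouring tissue were followed to see whether they shared this pattern. Their counts stand beside 33.1% called over all genes, 15.3% lower and 17.7% higher. Of 8 ependymal genes, 6 were lower and 0 higher (limma, adjusted p below 0.05), and of the 6 that passed the filter in both diets 4 were lower. Among them was Foxj1, the regulator of motile cilia (log2 difference -1.25, adjusted p = 0.00221 by limma). The sum of the 8 genes was 20.0 to 34.2 FPKM in normal and 9.4, 13.8, 15.6 and 14.4 FPKM in high fat diet mice, so mouse 4 was low with the rest. Single genes differed from the sum, as mouse 4 was the highest of its diet for 2 of the 8, Mia and Tekt1. Mia was the one gene of this list over 2-fold higher in mouse 4, at 0.5, 0.4, 0.3 and 1.8 FPKM in high fat diet mice. Tekt1, which was not called, was at 0.8, 1.0, 0.8 and 1.6 FPKM there, beside 1.4 to 2.4 FPKM in normal mice. Of 14 genes of meningeal fibroblasts, 3 were lower and 0 higher, and their sum was 49.5 to 62.8 FPKM in normal and 46.1 to 69.6 FPKM in high fat diet mice. Endothelial genes gave 2 lower and 1 higher of 10, with sums of 130.5 to 146.4 and 125.6 to 138.5 FPKM. Meningeal and endothelial counts, both directions together, thus lay near or below the share over all genes. The 5 genes of blood were all lower, with sums of 239.2 to 479.7 and 199.1 to 247.4 FPKM, the last in mouse 4.

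Of the regional lists, striatum gave 8 lower of 8, thalamus 4 lower and 0 higher of 8, cerebellum 5 lower and 0 higher of 8, dentate gyrus 1 lower and 1 higher of 3, and cortical projection neurons 1 lower and 5 higher of 8. Over all genes 33.1% were called, 15.3% lower and 17.7% higher. Some genes of these lists passed the filter through the normal mice alone. Of those that passed in both diets, striatum had 6 lower of 6 and cerebellum 2 lower of 5. The sums of high fat diet mouse 4 were 79.3 FPKM for striatum and 44.2 FPKM for cerebellum, within the range of the other three high fat diet mice in both. In normal mouse 4, the lowest of its diet for the 6 members, the striatal sum was also the lowest of its diet, at 223.3 FPKM. Depth and a batch cannot be set beside these values, as neither is known.

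**Figure D5:**
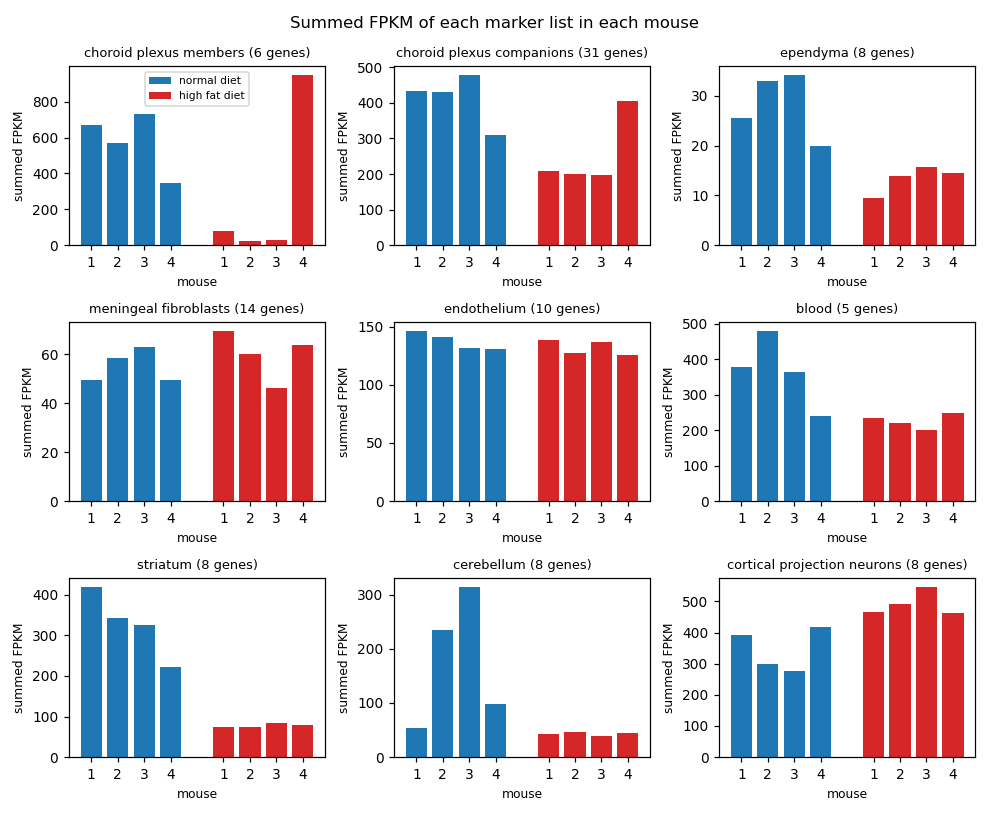
Summed FPKM of the genes of 9 lists in each mouse, normal in blue and high fat diet in red, with each axis starting at 0. High fat diet mouse 4 stands above all normal mice for the members (949.7 FPKM against at most 733.3) and within the normal range for the companions. In this mouse Ttr alone made up 920.7 FPKM of the member sum, and Enpp2 204.9 of the 405.4 FPKM of the companions. For ependyma, striatum and cerebellum it stands with the other high fat diet mice.

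Genes that work with the members were taken from lists by role, and their counts stand beside 33.1% called over all genes, 15.3% lower and 17.7% higher. Lists this small whose share is near that background show nothing particular to them. Of 7 genes for thyroid hormone and retinol, which Ttr carries, 2 were lower and 3 higher by limma. Slco1c1, a thyroxine transporter, was among those lower (log2 difference -0.45), and the thyroid hormone receptor genes Thra (0.30) and Thrb (0.75) were among those higher. Of 6 FGF receptor and klotho-processing genes, Adam17 was lower (-0.51) and Fgfr3 (0.18) and Bace1 (0.17) were higher. Of 8 folate genes, Mthfd1 (-0.17) and Shmt2 (-0.25) were lower and 0 were higher, and the folate transporters Slc19a1 (0.13) and Slc46a1 (0.08) were not called.

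Among relatives of the members, 2 of 3 chloride intracellular channel genes, Clic1 and Clic4, were lower and 0 higher. Of 10 inward rectifier genes, the glial channel gene Kcnj10 was lower (-0.61) and Kcnj6 (0.49), Kcnj9 (0.43) and Kcnj11 (0.32) were higher. None of the 3 genes listed beside Otx2 was measured (0 of 3). No gene of these 5 measured lists was over 2-fold higher in high fat diet mouse 4 than in the rest of its diet.

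Outside the choroid plexus lists, the genes whose deviations from the diet means were most like the mean of the 6 members over the 8 mice were Mob3a (Pearson's r 0.996), Drc7 (0.988), Dcun1d5 (0.987), Col8a2 (0.984) and Mpdu1 (0.980). Spearman's rho lay between 0.93 and 0.97. Without high fat diet mouse 4 r was 0.991, 0.970, 0.959, 0.931 and 0.910 in the same order. Drc7 ran from 1.2 to 2.3 FPKM in normal mice and was 0.6, 0.4, 0.5 and 1.7 FPKM in high fat diet mice, and Col8a2, a collagen gene, ran from 1.4 to 2.4 and was 0.7, 0.6, 0.7 and 1.8. The likeness is of deviations within a diet and not of levels between diets. Dcun1d5 was at 20.8 to 21.5 FPKM in normal and 18.0, 17.6, 17.8 and 20.6 FPKM in high fat diet mice, so that mouse 4 stayed below the normal mice and the whole span was small beside that of the members. Among the companions, Kcne2 had an r of 0.999 (0.992 without high fat diet mouse 4). These values were the highest of many genes over 8 mice and are descriptions.

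For single members, the gene outside the lists with the highest r was Wdr11 for Ttr (0.979), Mob3a for Kl (0.986), Dcun1d5 for Folr1 (0.987), Col9a3 for both Clic6 (0.978) and Otx2 (0.974), and Pcolce2 for Kcnj13 (0.981). Mfrp was among the 5 closest for Kl, Folr1 and Kcnj13, and Tmem59 was second for both Clic6 and Otx2.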

How the data were processed

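Cortex RNA of 4 normal and 4 high fat diet mice was analysed from 1 table. The authors checked reads with FastQC, ran Trimmomatic to trim, used STAR to align to mm10, and computed the deposited FPKM with Cuffnorm on the basic annotation of GENCODE M17 (GRCm38.p6). No source used here gives tool versions. FPKM were rounded to 0.1, read counts were not used, and no interval from depth can be given. The authors' filter (mean FPKM of at least 1 and no 0) left 13982 of 13996 genes. From the deposited values, log2(FPKM + 0.1) was fitted with limma 3.58.1 (R 4.3.3, variance trend, two-sided test), p-values were adjusted over the 13982 genes by Benjamini-Hochberg, and a gene was called at an adjusted p below 0.05. One library per mouse was the replicate.

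The 6 members and all gene lists (46 companions, ependyma, meningeal fibroblasts, endothelium, blood, striatum, thalamus, dentate gyrus, cerebellum, cortical projection neurons, and 6 lists of pathways or families of the members) were chosen with earlier results of these data known. The named genes were the members, the companions that were called or were among the 8 most abundant, called or most abundant genes of the other lists (not all are printed, and 2 are left out of the report), and the 5 genes outside the choroid plexus lists most like the members. Companions outside this rule (such as Kcne2, Aqp1, Prlr and Calml4), the overlapping genes and the 2-fold limit for a single mouse were chosen after values were seen. Coordinates came from GENCODE M21 on GRCm38 and promoters from RefSeq on GRCm38.p6. The mice were treated as unpaired, as the labels do not say that equal replicate numbers pair them. Tables were made with Python 3.11.15, numpy 2.4.6 and pandas 2.3.3, and figures with matplotlib 3.10.9. On simulated data over the 13982 genes of this comparison, the fit found 93 of 100 genes changed 2-fold, 95 of 100 changed 3-fold and 10 unchanged ones. Each gene was simulated on its own, so this does not cover a mouse that differs over many genes together. Alternatives were another constant, other filters, 2 rescalings, no variance trend, a replicate block, a minimum change and each mouse left out. Salmon and edgeR values of the authors were not used here.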

Additional observations from a re-analysis of the deposited data

Results flagged for a closer look

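Values are given here where the highest or the lowest of the 4 mice of a diet stood apart, with its gap to the nearest mouse, over the range of the diet, above Dixon's critical value. For 5 of the 6 members this was high fat diet mouse 4, at 920.7 FPKM for Ttr, 5.7 FPKM for Kl, 7.2 FPKM for Folr1, 4.7 FPKM for Clic6 and 9.7 FPKM for Kcnj13. As the members were chosen for a mouse that differed from its diet, these gaps are a description of the choice and no test. Among the 18 companions that were called or were among the most abundant, 5 of 36 groups of 4 mice, over both diets, had such a gap. Of all 31 measured companions, 11 had one in the high fat diet, and values are printed here for the 18 only. Chance gives about 5% of groups, and over all 13982 genes 5.04% of normal and 6.23% of high fat diet groups had one. Among the 18, high fat diet mouse 4 was the high mouse for Enpp2 (204.9 FPKM), 1500015O10Rik (12.1 FPKM) and Cab39l (13.3 FPKM). Normal mouse 4 was the low mouse for Igf2 (9.4 FPKM), and high fat diet mouse 3 for Slc29a4 (0.9 FPKM). The genes share their libraries, so these are not separate events. Otx2 was the one member without such a gap in the high fat diet.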

How the results depend on the processing

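The log2 differences of the 6 members kept their sign under every alternative run that held them (a mean FPKM of at least 5 leaves some out). Genes called between diets numbered 4626, and 997 when a change over 50% was also required. Leaving out 1 mouse in turn gave 3295 to 4619 genes and 5 to 22 companions, against 15 companions with all mice. Companions called fell to 8 with a mean FPKM of at least 5, where fewer genes are tested, and to 5 with the replicate block. The block gave 3390 genes over all. The labels do not say whether same-numbered mice were paired. The correlation of same-numbered mice lay between -0.109 and -0.028, and no mouse correlated best with its own number. So few mice cannot exclude a pairing. Under another constant, no filter and 2 rescalings, 15 companions were called, and 12 without a variance trend and 11 with a change over 50%. The sign of Htr2c, which was not called, turned without normal mouse 2 (0.02), normal mouse 3 (0.13), high fat diet mouse 2 (0.11) and high fat diet mouse 3 (0.05), in a range of -0.12 to 0.13 over the mice left out. The causes were not tested. Rounding to 0.1 FPKM and an unknown depth limit levels under about 1 FPKM.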

Other observations

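Of the 32 genes more than 2-fold higher in high fat diet mouse 4 than in each other mouse of its diet, 16 were in neither choroid plexus list, and the following were chosen after their values were seen. Mfrp, a membrane protein gene, had the members' shape, with 2.1, 2.2, 2.0 and 1.2 FPKM in normal and 0.3, 0.3, 0.2 and 1.9 FPKM in high fat diet mice. Ptp4a1, a phosphatase gene, did not, as it was at 8.0 to 9.0 FPKM in normal mice and at 7.4, 8.1, 7.1 and 44.2 FPKM in high fat diet mice, so that mouse 4 alone was high. The pseudogene RP23-265D6.1 was similar, at 1.0 to 1.2 FPKM in normal and 1.1, 1.7, 1.3 and 4.4 FPKM in high fat diet mice. Avp, which encodes vasopressin, was at 0.8, 1.2, 5.4 and 0.2 FPKM in normal and 0.4, 0.1, 0.5 and 1.2 FPKM in high fat diet mice, with its highest level in normal mouse 3.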
